A study of Mus musculus with 6 samples.

Results

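The Rab, Arf and Arf-like (Arl) GTPases are the small GTPases that direct membrane traffic, and here they were followed in embryonic mouse forebrain labelled wild-type or mutant for their relative Arl13b. Members were taken by gene symbol (Rab plus a number, Arf1 to Arf6, and Arl plus a number), leaving out Arl13b, Arl2, Arl3 and Arl6. This gave 81 of 24444 genes in the table: 59 Rab, 6 Arf and 16 Arl genes. Of these, 70 passed the filter on low values and were tested. The samples were telencephalon, the part of the forebrain that forms cortex and basal ganglia, taken at E12.5 from C57BL/6J mice. Poly(A) RNA was sequenced from 3 wild-type libraries and from 3 libraries labelled Arl13b-/-, called Arl13b-null 1 to 3 here. The labels name no other allele and no treatment in either group, and the mutant allele itself is not described in the sources used here. They also do not say whether a library was 1 embryo or several, so a p-value below reflects variation among libraries that could be wholly or partly technical.

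Small GTPases switch between a GTP-bound form, which holds effector proteins on a membrane, and a GDP-bound form. Guanine nucleotide exchange factors turn them on, and GTPase-activating proteins (GAPs) turn them off. Rab proteins give each compartment its identity and steer vesicles to it, Arf proteins recruit coats to budding vesicles, and Arl proteins act in lysosome transport, at the Golgi and in the cilium. Arl13b is a GTPase of the ciliary membrane that also serves as an exchange factor for Arl3, and several Rab proteins carry membrane cargo to the cilium. The comparison asks whether transcripts of these related GTPases differed in telencephalon labelled Arl13b-/-.

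The deposited values are variance-stabilised counts on a scale close to log2. A difference of 1 is about 2-fold in well-expressed genes and understates the change of weakly expressed ones. Undoing the transformation gave normalized counts, which are printed below in the order wild-type 1, 2 and 3, then Arl13b-null 1, 2 and 3. Differences are Arl13b-null minus wild-type on the deposited scale, with the standard error (SE). Counts are not divided by transcript length and are compared between libraries, not between genes.

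The libraries did not all hold the same tissue make-up. Depth, estimated from the value of a single read, lay between 27597200 and 51486200 reads. In Arl13b-null 2, the 10 markers of dividing cells summed to 2220 normalized counts and the 9 markers of radial glia to 3794, against 68758 to 81119 and 107671 to 137299 in wild-type 2 and 3 and Arl13b-null 1 and 3. Its 13 neuronal markers summed to 764693, against 148484 to 157624 in those 4 libraries. Wild-type 1 stood between, with 17282 for dividing cells, 45630 for radial glia and 310178 for neurons. Its 12 epithelial markers summed to 19198, against 214 to 4624 elsewhere. The 7 red blood cell markers summed to 8605, 57951 and 74818 in wild-type and 105659, 70.1 and 293179 in Arl13b-null, and the 8 of mesenchyme to 26061, 70411 and 34002 against 25731, 596 and 30697. Emx1, a transcription factor of the dorsal telencephalon, had counts of 633, 875 and 1161 in wild-type and 145, 2641 and 25.0 in Arl13b-null, lowest in Arl13b-null 3. Its high count in Arl13b-null 2 was not shared by most of the 7 telencephalon markers tested. Against the mean of wild-type 2 and 3, 4 of the 7 lay at least 1 below there and 2 at least 1 above (median −3.18). En2, a gene of midbrain and hindbrain, had 779, 2076 and 1051 in wild-type and 2139, 0 and 3337 in Arl13b-null. Arl13b itself had 661, 553 and 560 against 492, 532 and 564, a gene-level value that does not check the genotype labels. For these reasons every comparison is given for all 6 libraries and for the 4 libraries other than wild-type 1 and Arl13b-null 2. Those 4 were not alike by genotype either. The 7 telencephalon markers tested were all lower in Arl13b-null 1 and 3 (median difference −0.75). So were the 12 epithelial markers (−1.89) and the 8 mesenchyme markers (−0.65). The 5 midbrain and hindbrain markers were all higher (0.78), as were the 7 red blood cell markers (1.35). Of all of these, 0 passed an adjusted p of 0.05 (limma). At an unadjusted p under 0.05 (limma) there were 4 telencephalon, 11 epithelial and 3 mesenchyme markers, 1 of midbrain and hindbrain, and 7 of red blood cells. What share of any difference came from the make-up of the tissue was not tested, and a bulk value cannot tell fewer cells of a type from less RNA per cell.

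The GTPase genes followed the same division between libraries, and the comparison begins with those that did so most clearly. Rab3a and Rab3b, which dock synaptic and secretory vesicles at the plasma membrane, and Arl8a, which moves lysosomes and synaptic vesicle precursors along microtubules, had their highest counts in Arl13b-null 2 and their second highest in wild-type 1. Rab25, a recycling endosome Rab of epithelia, was instead highest in wild-type 1 and at 0 in Arl13b-null 2. Rab8a, a Rab of exocytosis and ciliary membrane delivery, was lowest in wild-type 1 and not raised in Arl13b-null 2. The 120 bases just before the transcription start of these 5 genes are shown because the first 3 were high together and the other 2 were not. They are RefSeq sequences of assembly GRCm38.p6, which is not the build named for the deposited files. Capitals mark the GC box (GGGCGG or its reverse complement), the CCAAT box, the cyclic AMP response element (CRE, TGACGTCA) and the TATA box (TATAAA), all searched on both strands.
Rab3a, chr8:70754583-70754702, plus strand: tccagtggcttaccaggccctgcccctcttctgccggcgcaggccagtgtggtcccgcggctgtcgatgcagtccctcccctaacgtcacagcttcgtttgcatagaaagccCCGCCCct
Rab3b, chr4:108878950-108879069, plus strand: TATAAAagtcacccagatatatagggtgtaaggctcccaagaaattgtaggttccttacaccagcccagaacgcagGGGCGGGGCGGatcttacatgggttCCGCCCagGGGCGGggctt
Arl8a, chr1:135146714-135146833, plus strand: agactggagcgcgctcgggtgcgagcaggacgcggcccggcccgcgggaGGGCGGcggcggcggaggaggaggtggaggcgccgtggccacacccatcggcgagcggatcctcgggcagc
Rab25, chr3:88548280-88548399, minus strand: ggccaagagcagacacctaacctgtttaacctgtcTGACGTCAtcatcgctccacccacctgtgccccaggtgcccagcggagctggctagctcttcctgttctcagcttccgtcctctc
Rab8a, chr8:72161080-72161199, plus strand: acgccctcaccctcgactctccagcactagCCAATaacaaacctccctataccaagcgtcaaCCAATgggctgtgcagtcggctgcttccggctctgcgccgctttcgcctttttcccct

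A GC box lies in the stretches of Rab3a, Rab3b and Arl8a, in Rab3b as 4 matches of which the first pair overlap. A second RefSeq start of Rab3a, not printed, has none in its 120 bases. No GC box lies in those of Rab25 and Rab8a, of which the first holds a CRE and the second a pair of CCAAT boxes. Promoters were matched for 66 of the 81 genes. Within 250 bases before a start, 50 of the 66 genes (75.8%) had a GC box, against 64.7% of all genes tested with a promoter and 35.4% of all genes in the RefSeq table. The CRE was found in 4 of the 66 (6.06%), against 3.18% of genes tested. Of the genes at least 1 above the mean of wild-type 2 and 3 in Arl13b-null 2, 18 of 20 with a promoter (90%) had a GC box. Of the other GTPase genes tested, 29 of 39 (74.4%) did. Rab25 and Rab8a had none within 250 bases either, so they were unlike most of the genes in that group. Some genes have several starts, and any of them could hold the match. Counted by start, the shares were closer, at 20 of 26 (76.9%) against 35 of 49 (71.4%). A match is a run of letters and not a measured binding site.

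Rab3a had 8148, 2593 and 2448 normalized counts in wild-type and 2741, 22362 and 2431 in Arl13b-null. Arl13b-null 2 and wild-type 1 stood above the other 4 libraries, which lay close together in both genotypes. Against the mean of wild-type 2 and 3, its count was 8.87-fold in Arl13b-null 2 and 3.23-fold in wild-type 1. Rab3b had 991, 278 and 298 against 273, 4002 and 264, which put Arl13b-null 2 at 13.9-fold. Rab3d, the Rab3 form known from secretory granules of gland cells, had 1439, 645 and 635 against 497, 2455 and 510. Rab3c, a further Rab3 of synaptic vesicles, differed from these in order, with 13113, 5240 and 5366 against 6614, 10518 and 7205, so that wild-type 1 and not Arl13b-null 2 was highest.

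Rab15, an endosomal Rab enriched in neural tissue, had 1853, 802 and 678 in wild-type and 620, 6037 and 669 in Arl13b-null. Rab27b, which acts in regulated secretion, had 418, 82.6 and 59.6 against 51.8, 504 and 73.4. Both were high in the same pair of libraries as Rab3a. Of the secretory Rabs fixed as a list, 12 of 15 were tested, and 6 of the 12 lay at least 1 above the mean of wild-type 2 and 3 in Arl13b-null 2, while 2 of the 12, Rab8b and Rab13, lay at least 1 below. Of all genes tested, 21.0% lay at least 1 above and 25.5% at least 1 below in that library. Rab13, which acts at epithelial junctions, had 250, 356 and 363 against 380, 46.0 and 324. Rab26, a Rab of synaptic vesicles and their autophagy, missed the filter, with 32.5, 5.26 and 7.82 against 3.62, 118 and 4.28.

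**Figure D1:**
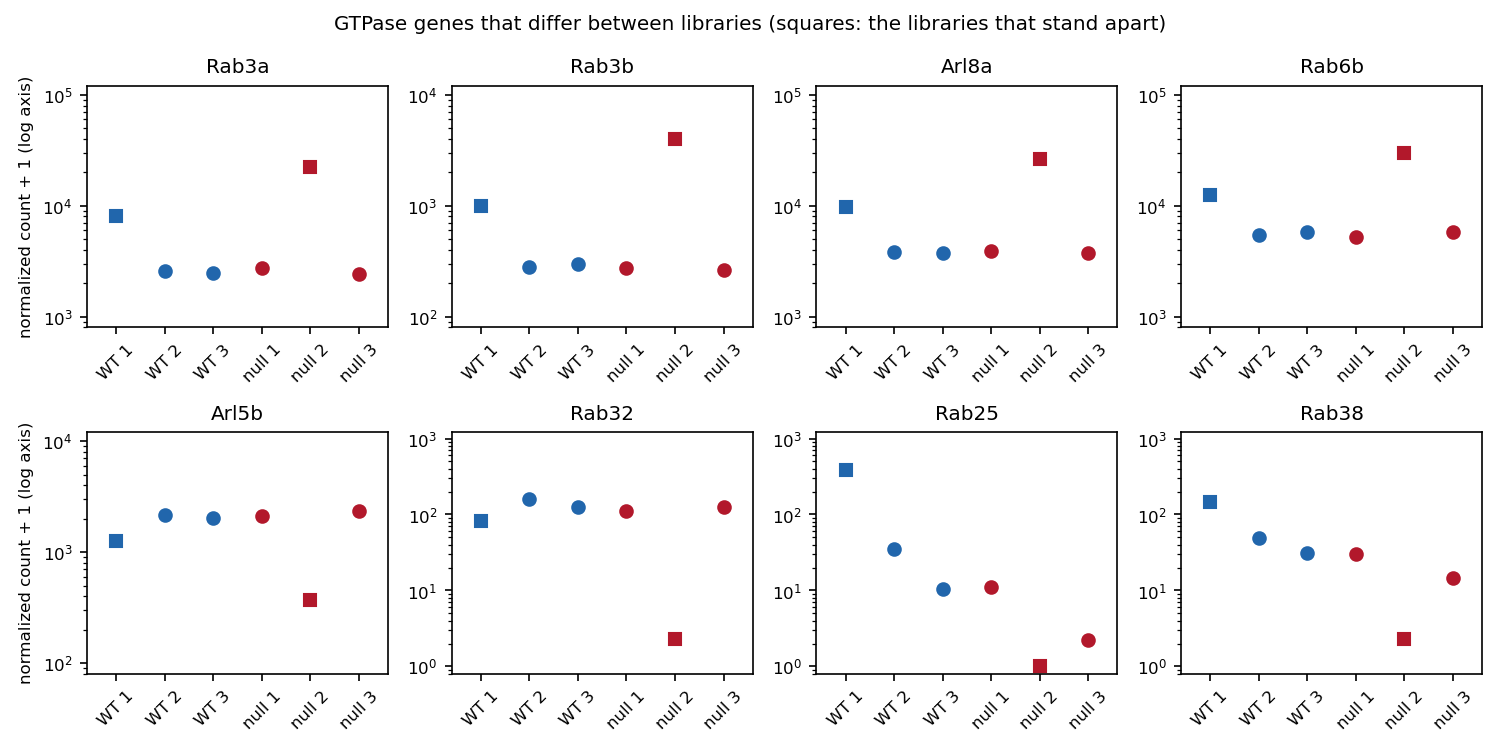
Normalized counts plus 1, on a log axis, of 8 GTPase genes in each library (blue, wild-type; red, Arl13b-null; squares, wild-type 1 and Arl13b-null 2; no error bars, since each point is 1 library). Rab3a, Rab3b, Arl8a and Rab6b are highest in Arl13b-null 2 and next highest in wild-type 1, Arl5b and Rab32 are lowest in Arl13b-null 2, and Rab25 and Rab38 are highest in wild-type 1 and lowest in Arl13b-null 2.

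Arl8a had 9749, 3834 and 3748 in wild-type and 3922, 26350 and 3728 in Arl13b-null, a ratio of 6.95 in Arl13b-null 2 to the mean of wild-type 2 and 3. Its paralogue Arl8b, which shares the lysosomal role, had 3905, 2991 and 3252 against 3129, 4308 and 3065. The log2 ratio of Arl8a to Arl8b was 0.20 to 0.36 in those 4 libraries, 1.32 in wild-type 1 and 2.61 in Arl13b-null 2. Because each ratio is read across libraries for a fixed pair of genes, transcript length does not enter the comparison. Some other pairs of paralogues, of a larger set compared, parted in the same way. Arf3, an Arf of the Golgi that is abundant in brain, had a log2 ratio to Arf1 of −0.89 to −0.70 in the 4 libraries, −0.13 in wild-type 1 and 0.59 in Arl13b-null 2. Rab9b, a neuronal form of the late endosome Rab Rab9, had a log2 ratio to Rab9 of −1.60 to −1.29, then 0.16 and 0.61. For Rab27b over Rab27a the values were −0.36 to 0.34, then 1.78 and 2.73.

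In other pairs the order differed. Arl5b, a trans-Golgi GTPase, had 1251, 2164 and 2014 against 2104, 371 and 2347, and its log2 ratio to Arl5a was −0.43 to −0.18 in the 4 libraries, −1.21 in wild-type 1 and −2.96 in Arl13b-null 2. Arl5a itself had 2902, 2447 and 2668 against 2834, 2891 and 2806, the smallest range of all GTPase genes tested. Rab8b over Rab8a was −0.33 to −0.05 in the 4 libraries, above them at 0.37 in wild-type 1 and below them at −1.40 in Arl13b-null 2. The pair Rab1a and Rab1b, Rabs of transport from the endoplasmic reticulum to the Golgi, was at 0.01 to 0.16, then 0.62 and 0.24. Rab5b over Rab5a was at 0.23 to 0.38, then 0.37 and 0.70, so that wild-type 1 did not stand apart. Rab3d over Rab3b fell in both, from 0.87 to 1.21 in the 4 libraries to 0.54 and −0.70. Not every pair compared is given here.

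Rabs of the Golgi and the endoplasmic reticulum were on the whole above the reference in Arl13b-null 2, by a median of 0.71 over the 14 tested, and 6 of the 14 passed a difference of 1, against 21.0% of all genes. Rab6b, a neuronal Rab of retrograde Golgi traffic, had 12522, 5418 and 5799 against 5216, 30152 and 5784. Its ubiquitous relative Rab6a had 9648, 6139 and 6120 against 6398, 18715 and 6267. Both were highest in Arl13b-null 2 and next in wild-type 1.

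Among 18 tested Rabs of early, recycling and late endosomes, the median in Arl13b-null 2 was 0.77 above the reference, with 6 at least 1 above and 1, Rab25, at least 1 below, against 21.0% and 25.5% of all genes. Rab4a, which returns receptors rapidly to the surface, had 831, 607 and 665 against 693, 3312 and 714. Rab4b, its close relative, had 721, 735 and 717 against 776, 2864 and 766, although 62.6% of its 31-base words also occur in transcripts of other genes, mostly in the overlapping model Gm21983. Rab21, a Rab of integrin recycling, had 1396, 1210 and 1171 against 1298, 1379 and 1257, and Rab14, of traffic between Golgi and endosomes, had 7233, 6323 and 6419 against 6808, 7938 and 6737. The last pair were among the 6 GTPase genes that varied least, with Arl5a, Rab23, Arf4 and Rab39b.

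Rab32, Rab38 and Rab27a serve melanosomes and other lysosome-related organelles. Rab32 had 80.7, 160 and 123 in wild-type and 109, 1.31 and 123 in Arl13b-null, so that 5 libraries were of one order and Arl13b-null 2 was close to 0. Rab38 had 145, 47.4 and 30.5 against 29.0, 1.31 and 13.5. Rab27a differed from both, with 122, 78.0 and 68.4 against 66.3, 76.0 and 58.0, and was not low in Arl13b-null 2. The 8 pigment cell markers summed to 440, 198 and 260 in wild-type and 187, 51.0 and 41.4 in Arl13b-null, and Pmel, Mlana and Rpe65 were at 0 in Arl13b-null 2. Rab25 had 381, 34.6 and 9.47 against 10.2, 0 and 1.23. The 12 epithelial markers summed to 19198, 4624 and 2081 in wild-type and 875, 214 and 300 in Arl13b-null, and Krt5, Krt8, Krt15 and Cdh1 were at 0 in Arl13b-null 2. Rab7b, a Rab of lysosomal transport, had 104, 22.5 and 16.6 against 17.6, 6.55 and 17.9, with wild-type 1 apart from the rest. The part of pigment cells or epithelium in these values was not tested.

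Counted over all tested GTPase genes, 24 of 70 lay at least 1 above the mean of wild-type 2 and 3 in Arl13b-null 2, against 21.0% of all 14249 genes tested. Those at least 1 below numbered 7, or 10%, against 25.5% of all genes. In wild-type 1, 13 of 70 lay at least 1 above, against 12.2% of all genes, and 0 lay at least 1 below, against 6.55%. In Arl13b-null 1 and Arl13b-null 3, 0 of 70 lay at least 1 away in either direction, against 0.793% and 1.94% of all genes. These are shares in single libraries, with no replicate and no test. The members' share of all normalized counts was 0.776%, 0.579% and 0.572% in wild-type and 0.590%, 0.990% and 0.562% in Arl13b-null.

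**Figure D2:**
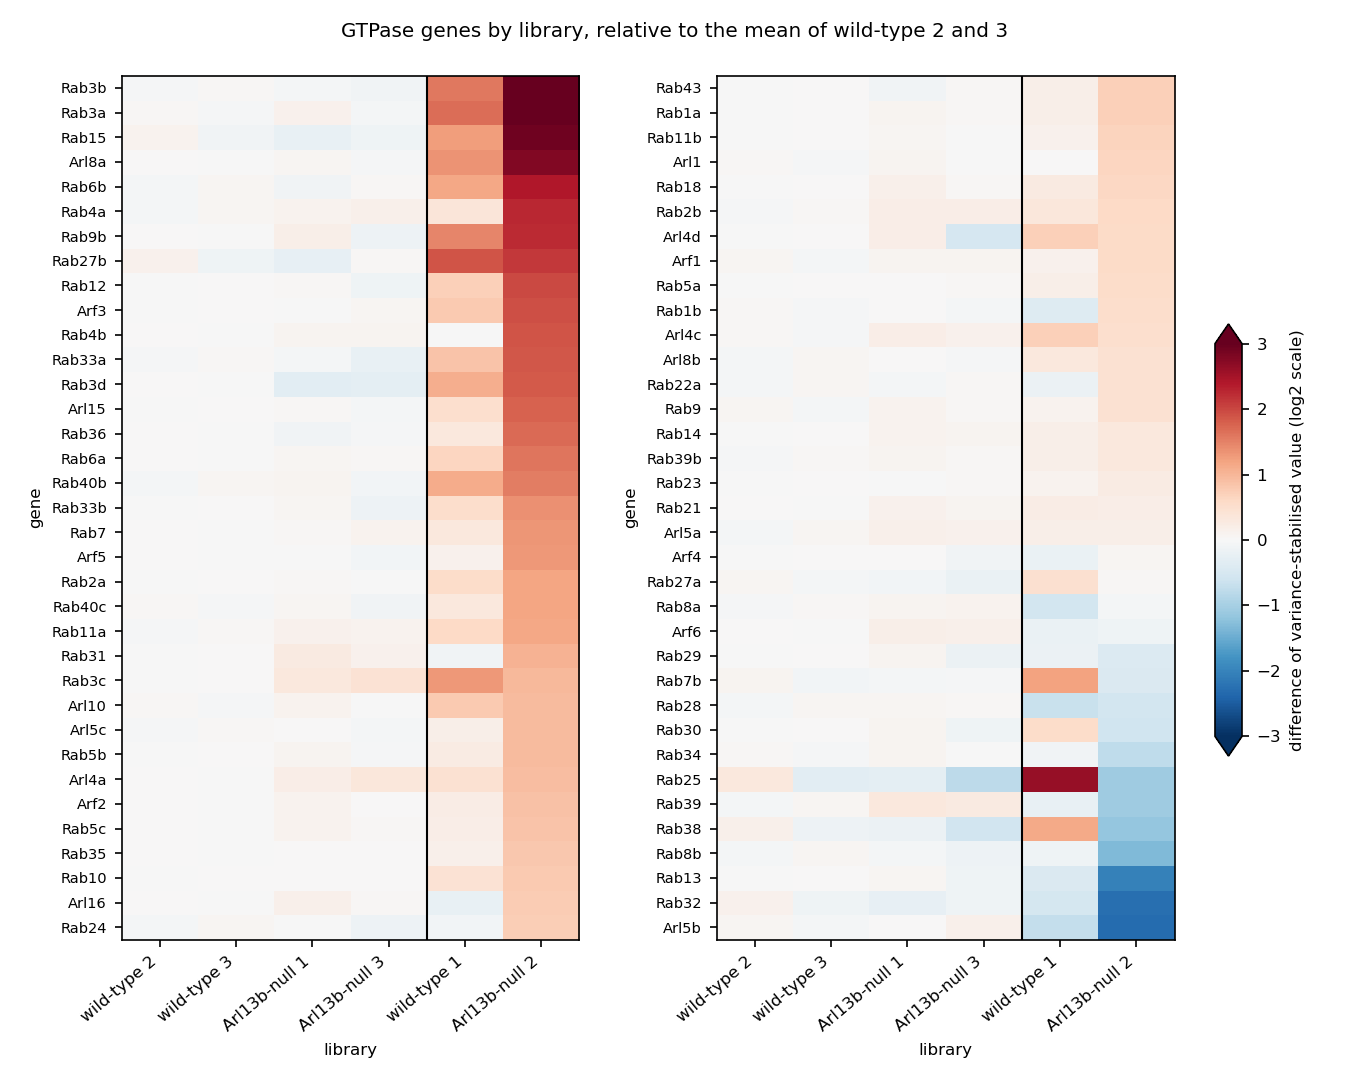
Difference of each library (columns) from the mean of wild-type 2 and 3, on the deposited log2-like scale (colour), for the 70 GTPase genes tested (rows). The columns of wild-type 1 and Arl13b-null 2 hold nearly all of the strong colours, and those of Arl13b-null 1 and 3 hold no gene at 1 or beyond.

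In the comparison of all 6 libraries, 0 of 70 GTPase genes passed an adjusted p of 0.05 (limma, Benjamini-Hochberg over all genes), where 0% of all genes tested did. At an unadjusted p under 0.05, 0 of 70 were higher in Arl13b-null and 0 lower, against 0.112% and 1.03% of all genes. The smallest adjusted p among them was 0.990. The median difference over the 70 was 0.20, with 57 above 0 and 13 below, beside a median of 0.003 over all genes. Without Arl13b-null 2 the median over the same genes was −0.05, so its sign rested on that library.

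Groups of 3 did not overlap for 4 of the 70. Higher in all 3 Arl13b-null libraries were Arl16, Rab31 and Rab4b, or 3 genes against 4.67% of all genes, and lower was Rab38 alone, against 3.59%. Each has an exact two-sided permutation p of 0.1, the smallest that 3 against 3 can give. Rab31, a Rab of trans-Golgi and endosome traffic, had 2624, 2819 and 2860 against 3420, 5906 and 3124, and its mean value was 11.47 ± 0.065 (SD, n = 3) in wild-type and 11.98 ± 0.49 in Arl13b-null. The difference was 0.52 ± 0.28 (SE). Arl16, an Arl protein, had 420, 504 and 499 against 561, 897 and 517, a difference of 0.39 ± 0.27. The difference of Rab4b was 0.68 ± 0.53. Without Arl13b-null 2, the differences were 0.24 for Rab31, 0.17 for Arl16 and 0.08 for Rab4b. The difference of Rab38 was −1.02 ± 0.43, the smallest p of the 70 (unadjusted 0.0584, limma), and that of Rab25 was −1.59 ± 0.78. Without wild-type 1 they were −0.64 for Rab38 and −0.71 for Rab25.

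In the 4 libraries without wild-type 1 and Arl13b-null 2, the GTPase genes of both genotypes lay close together. Sex and genotype cannot be told apart in these 4, by the Xist and Ddx3y counts given further below. Of the 70, 0 passed an adjusted p of 0.05 (limma), against 0.253% of all genes (36 genes). At an unadjusted p under 0.05, 7 were higher, or 10% against 8.08% of all genes, and 1 was lower, or 1.43% against 6.33%. Values did not overlap between the groups of 2 for 21 genes that were higher, against 29.3% of all genes, and for 10 that were lower, against 18.1%. The shares of higher genes lay near those of all genes, and the share of lower genes at that p was the smaller one. The median difference was 0.02, beside 0.02 over all genes, with 40 above 0 and 30 below.

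With 4 libraries the differences were also small in size. The difference was under 0.5 for 69 of 70, and under 0.2 for 64 of 70 (91.4%), against 82.2% of all genes. The 95% interval of the difference lay within 0.5 of 0 on both sides for 64 of the 70 (91.4%), against 83.8% of all genes. With all 6 libraries it did so for only 4 of the 70 (5.71%), against 3.99% of all genes. The gene with the widest difference in the 4 libraries was Rab25 (−0.54 ± 0.27, SE), whose counts there were 35 or fewer.

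**Figure D3:**
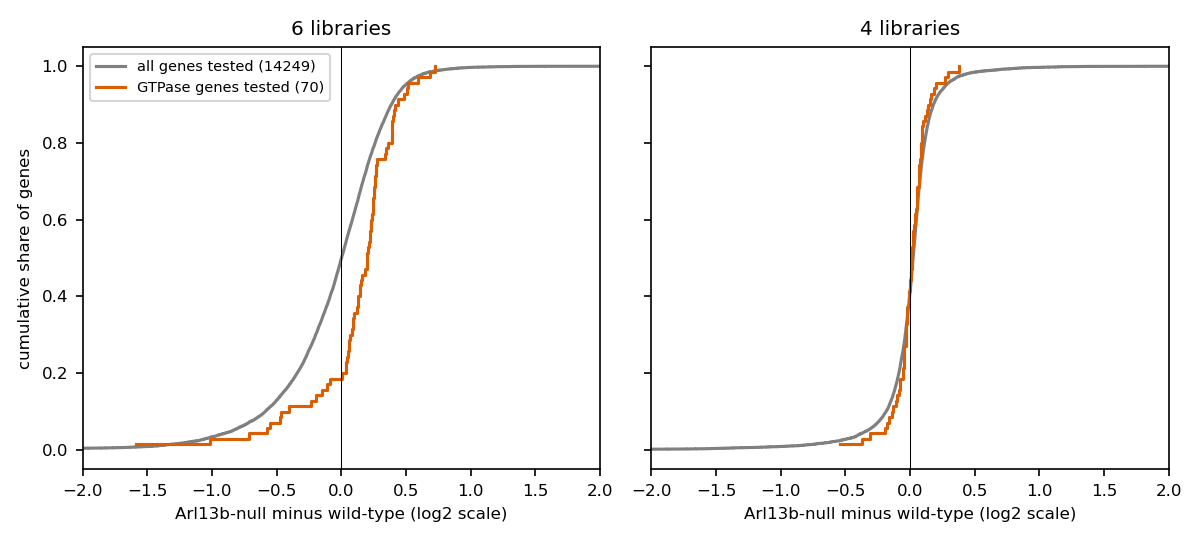
Cumulative share of genes by their difference (Arl13b-null minus wild-type, log2-like scale), for the 70 GTPase genes tested and for all 14249 genes, with 6 libraries and with 4. With 6 libraries the curve of the GTPase genes lies to the right, with a median of 0.20 against 0.003, and with 4 libraries the medians are both 0.02.

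The smallest p of the 4 libraries belonged to Rab3c, with 5240 and 5366 counts in wild-type 2 and 3 and 6614 and 7205 in Arl13b-null 1 and 3. The groups did not overlap, and the difference of 0.38 ± 0.057 (SE) had an adjusted p of 0.0887 (limma). Arl4a, an Arl that recruits Arf exchange factors to the plasma membrane, had 1615 and 1600 against 1865 and 2039, a difference of 0.27 ± 0.061 with an adjusted p of 0.165. With Arl13b-null 1 left out, both passed, with an adjusted p of 0.0120 for Rab3c and 0.0453 for Arl4a (limma). The one mutant library then left is Arl13b-null 3, the library lowest in Emx1, whose spread is assumed to be like that of wild-type. With Arl13b-null 3 left out instead, the adjusted p was 0.0955 for Rab3c and 0.335 for Arl4a.

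Rab3d was lower in the 4 libraries, with 645 and 635 against 497 and 510, a difference of −0.31 ± 0.066 and an adjusted p of 0.147 (limma). Rab3a (0.03 ± 0.072) and Rab3b (−0.08 ± 0.082) did not follow either one, so the values of the Rab3 genes went in different directions. In all 6 libraries, the differences of Rab3c and Rab3d were 0.15 ± 0.42 and 0.04 ± 0.69, because wild-type 1 and Arl13b-null 2 both lay far above the rest.

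The remaining genes with an unadjusted p under 0.05 were higher. Arf6, the Arf of the plasma membrane and of endosome recycling, had 3718 and 3711 counts in wild-type 2 and 3 and 4178 and 4122 in Arl13b-null 1 and 3. The difference was 0.16 ± 0.043, with an adjusted p of 0.216 (limma). Rab31 differed by 0.20 ± 0.059 and Rab2b, a Golgi Rab, by 0.19 ± 0.055. Rab39, a Rab of late endosomes and autophagy, differed by 0.30 ± 0.094, and Arl4c, a close relative of Arl4a, by 0.16 ± 0.055. The adjusted p of these 4 ranged from 0.237 for Rab2b to 0.283 for Arl4c.

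**Figure D4:**
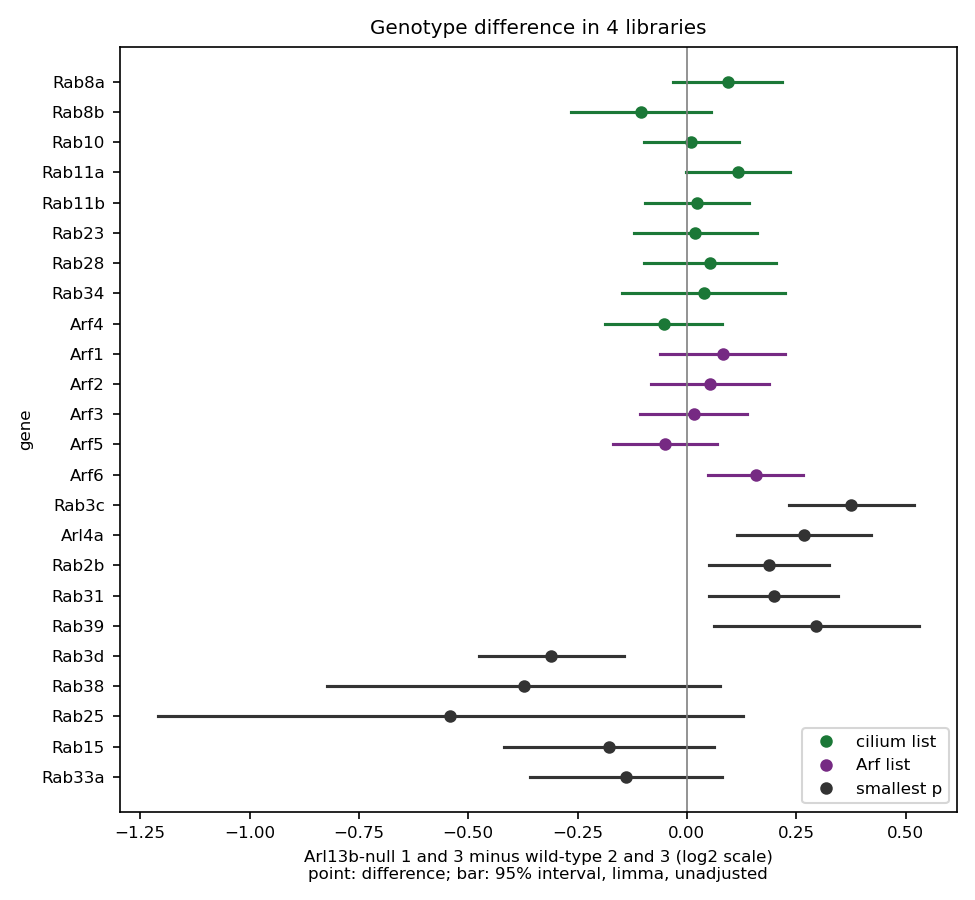
Difference between Arl13b-null 1 and 3 and wild-type 2 and 3, with its 95% interval (limma, unadjusted) on the deposited log2-like scale. The genes drawn are GTPases with known cilium roles, the Arf genes and those with the smallest p per direction in this fit. The other GTPase genes tested are not drawn. Most of the intervals drawn cross 0 and are narrow, and Rab3c lies furthest to the right at 0.38. The wide intervals of Rab25 and Rab38 belong to genes with few counts.

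A list of 9 Rab and Arf genes was made up of GTPases with known roles at the primary cilium, and it leaves out the ciliary Arl3 and Arl6, which the choice of genes set aside. In the 4 libraries their differences ran from −0.11 to 0.12, with a median of 0.02. Past an adjusted p of 0.05 (limma) were 0 of 9, against 0.253% of all genes. At an unadjusted p under 0.05 there were 0, against 8.08% of all genes higher and 6.33% lower. The 95% interval lay within 0.5 of 0 for 9 of 9, against 83.8% of all genes. With all 6 libraries it did so for only 2 of 9, against 3.99% of all genes, and the differences ran from −0.47 to 0.27. The intervals of the 4 libraries bound the size of a difference in those libraries and do not show that the transcripts were alike.

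Rab23, a negative regulator of Sonic hedgehog signalling, had 1163, 1069 and 1069 counts in wild-type and 1066, 1286 and 1104 in Arl13b-null. It was among the steadiest of the family over all 6 libraries, and its difference in the 4 was 0.02 ± 0.056. Rab8a, which delivers membrane to the growing cilium, had 2006, 2906 and 3062 against 3157, 2866 and 3217. Its difference was 0.09 ± 0.050 in the 4 libraries and 0.23 ± 0.21 in all 6. Its relative Rab8b had 2584, 2710 and 2966 against 2708, 1089 and 2553, with Arl13b-null 2 low, and differed by −0.11 ± 0.064 in the 4.

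Rab11a, the recycling endosome Rab upstream of Rab8 in ciliary transport, had 5349, 3440 and 3568 against 3855, 7953 and 3758. Its difference of 0.12 ± 0.047 in the 4 libraries had a 95% interval that ran up to 0.24. Rab11b, its paralogue, had 4460, 4024 and 4137 against 4229, 6576 and 4072, a difference of 0.02 ± 0.047. Rab10, an exocytic Rab also found at the ciliary base, had 9566, 6940 and 7085 against 7060, 12224 and 7065, a difference of 0.01 ± 0.043.

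Rab28, known to travel with intraflagellar transport trains, had 729, 1150 and 1234 against 1249, 786 and 1228. Wild-type 1 and Arl13b-null 2 were both lower than the rest, whereas the 4 other libraries differed by 0.05 ± 0.061. Rab34, needed for the ciliary vesicle in intracellular ciliogenesis, had 469, 517 and 497 against 542, 272 and 503, a difference of 0.04 ± 0.075. Arf4, which sorts rhodopsin and other ciliary cargo at the Golgi, had 6956, 7937 and 8074 against 8006, 8357 and 7436, a difference of −0.05 ± 0.053.

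All 6 Arf genes were tested, and in the 4 libraries the interval lay within 0.5 of 0 for 6 of 6, against 83.8% of all genes. With all 6 libraries it did so for 1 of 6, against 3.99% of all genes. Arf1, the main Arf of the Golgi, had 10728, 10178 and 9335 against 10368, 14546 and 10270, a difference of 0.08 ± 0.057, and 17.8% of its 31-base words also occur in transcripts of other genes. Arf2 had 3452, 2984 and 2961 against 3201, 5503 and 2977, and differed by 0.05 ± 0.054. Arf3 had 9792, 5618 and 5754 against 5605, 21866 and 5897, with Arl13b-null 2 far above and wild-type 1 next, and the 4 libraries differed by 0.02 ± 0.049. Arf5 had 3351, 3095 and 3063 against 3033, 7658 and 2910, with a difference of −0.05 ± 0.048. In Arl13b-null 2 the Arf genes lay a median of 0.72 above the reference. Of the 6, 2 passed 1, Arf3 and Arf5, against 21.0% of all genes.

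The Arl genes other than those left out by the rule showed differences from −0.16 for Arl4d to 0.27 for Arl4a in the 4 libraries, with a median of 0.05 over the 12 tested. Arl4d, a further Arl of the plasma membrane, had 540, 299.9 and 309 against 357, 487 and 195. Its spread within the 4 libraries was wide, and its difference was −0.16 ± 0.23. Arl8a and Arl8b, which stood so far apart in Arl13b-null 2, differed by 0.01 ± 0.049 and −0.01 ± 0.057 in the 4. The relatives set aside by the rule, Arl2, Arl3 and Arl6, differed by 0.15 ± 0.067, 0.08 ± 0.059 and −0.06 ± 0.070, and the adjusted p of Arl2 was 0.388 (limma).

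A total of 11 GTPase genes were too low to test. Arl14 had a count of 0 in every library. Arl13a, a relative of Arl13b, had 0.534 in wild-type 1, about the value of a single read, and 0 in the other 5. Rab17, an epithelial Rab, had 6.29, 1.87 and 1.60 against 0, 0 and 0.675. Rab44, a large Rab of immune cells, had 30.6 in wild-type 1 and at most 2.47 elsewhere. The others were Arl9, Arl11, Rab19, Rab20, Rab37 and Rab42, besides Rab26.

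The genes Rab9, Rab9b, Rab33a, Rab39b and Arl13a lie on the X chromosome. Xist had 15101, 26.5 and 213 counts in wild-type and 16292, 244 and 19017 in Arl13b-null, and the Y-linked Ddx3y had 0.537, 1093 and 1258 against 0, 0 and 1.23. Sex and genotype therefore cannot be told apart in the 4 libraries. The X-linked genes tested differed by 0.07 ± 0.071 (Rab9), 0.00 ± 0.12 (Rab9b), −0.14 ± 0.088 (Rab33a) and 0.06 ± 0.062 (Rab39b).

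The proteins that switch and read these GTPases were examined as 3 lists: 52 Rab regulators, 34 tested Rab effectors and kinases, and 50 tested Arf regulators and effectors. In each list 0 genes passed an adjusted p of 0.05 with 6 or with 4 libraries (limma), against 0% and 0.253% of all genes. With 6, 0 had an unadjusted p under 0.05, against 0.112% of all genes higher and 1.03% lower. With 4 libraries, 3 Rab regulators were higher and 1 lower at an unadjusted p under 0.05, as were 3 and 2 Rab effectors and 2 and 1 Arf regulators, where 8.08% of all genes were higher and 6.33% lower. Their median differences were 0.01, 0.01 and 0.03, beside 0.02 over all genes.

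Iqsec2, an exchange factor for Arf proteins at excitatory synapses, had 1354, 470 and 458 counts in wild-type and 355, 4544 and 317 in Arl13b-null. It was high in the same 2 libraries as Rab3a, whereas in the 4 libraries it was lower in Arl13b-null by 0.40 on the log2-like scale (−0.40 ± 0.083, adjusted p = 0.143, limma). Agap2 and Agap3, Arf GAPs, were also highest in Arl13b-null 2. Agap2 had 14374, 2843 and 3176 against 3523, 38995 and 3379. Agap3 had 6239, 4712 and 4763 against 5382, 17440 and 5416, with a difference of 0.19 ± 0.043 in the 4 libraries (adjusted p = 0.167, limma).

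Of the Rab effectors, Rab11fip2, which binds Rab11 and myosin V on recycling endosomes, had 2233, 1481 and 1549 against 1285, 3668 and 1201, a difference of −0.27 ± 0.061 in the 4 libraries (adjusted p = 0.161, limma). Rims2, a Rab3 effector of the presynaptic active zone, had 1930, 1485 and 1630 against 1789, 1788 and 1824, and differed by 0.21 ± 0.063. Sytl1, a Rab27 effector, had 178, 31 and 19.6 against 10.2, 17.1 and 2.45, with wild-type 1 highest as for Rab25.

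Among Rab regulators, Rab3ip (Rabin8), the exchange factor that activates Rab8 for ciliogenesis, had 1106, 1064 and 1092 against 1154, 1826 and 1152. The 3 mutant libraries were all higher, but the difference was 0.29 ± 0.24 with an adjusted p of 0.990 (limma), and 0.09 ± 0.055 in the 4. Tbc1d30, a GAP of Rab8 that limits cilium formation, had 2333, 789 and 788 against 920, 3269 and 915, and differed by 0.20 ± 0.058 in the 4 (adjusted p = 0.231, limma). Tbc1d4, a Rab GAP known from glucose transporter traffic, had 640, 430 and 470 against 362, 147 and 385, lower in all 3 mutant libraries. Its difference was −0.74 ± 0.38 with 6 libraries and −0.23 ± 0.082 with 4.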

How the data were processed

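The 6 libraries were grouped by genotype and replicate number in the labels. For 24444 genes, the deposited values are log2-scale normalized counts after the authors' variance stabilisation. The tools listed, without roles, in the submitters' processing notes are DESeq2, DESeq 1.16.1, Salmon 0.9.1, STAR 2.6.0 and CASAVA, and the build listed is mm9. The annotation is not given in the sources used here. The lowest value, 5.12855, was taken as a count of 0, which allowed the transformation to be inverted to normalized counts.

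Genes with a mean at least 1 above the lowest value (14249) entered limma 3.58.1 (R 4.3.3) with a mean-variance trend, two-sided, Benjamini-Hochberg over all genes, threshold 0.05. The fit was run on 6 libraries and on 4 (wild-type 2 and 3, Arl13b-null 1 and 3). It was tested on simulated data with known changes and independent noise. Those data held no deviations shared across a library, such as those of wild-type 1 and Arl13b-null 2. The test therefore does not show how the fit behaves with such libraries. Members and lists were chosen with earlier results of these data known, and markers of brain regions were added after values were seen. Named genes are the cilium and Arf lists, the smallest p per direction in each fit, the largest and smallest ranges, the genes set furthest by wild-type 1 and Arl13b-null 2, and up to 3 regulators per list and direction; others named (such as paralogues and low genes) were chosen after their values were seen. Shared 31-base words were counted in GENCODE transcripts. Precision of low counts is limited by depth. Alternatives were the filter, centring, quantile normalization, the variance model, inverted counts, library weights, a replicate block and leaving out each library. Figures were drawn with matplotlib 3.10.9.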

Additional observations from a re-analysis of the deposited data

How the results depend on the processing

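With 6 libraries, the number of GTPase genes past an adjusted p of 0.05 (limma) was 0 under all alternatives run. Leaving out each library gave 4 to 21 genes without overlap between groups and a median difference of −0.0517 to 0.317, the lowest without Arl13b-null 2. The genes without overlap numbered 21 without wild-type 1, 8 without wild-type 3, 7 without Arl13b-null 1 and 14 without Arl13b-null 2. With fewer libraries in a group, fewer can overlap. The share of all genes without overlap was not counted with a library left out, here or for the 4 libraries. Whether such numbers are unusual therefore cannot be told. With 4 libraries, leaving out each library gave 0 to 2 genes called, 42 to 59 without overlap (31 with all 4) and a median of 0.000304 to 0.0591. The 2 called without Arl13b-null 1 were Rab3c (0.437) and Arl4a (0.330), and the effector gene Sytl5 passed as well (−0.875, adjusted p = 0.0493). Signs were checked only for named genes, not for every GTPase gene tested. With library weights and 6 libraries, 6 of the genes named for their smallest p changed sign against the fit without weights. They were the GTPase gene Rab1b (−0.0685) and the regulators or effectors Dennd2c (0.306), Rilpl2 (−0.00839), Cyth2 (−0.0345), Gcc2 (0.112) and Gbf1 (0.0244). Leaving out each library gave −0.0837 to 0.578 for Rilpl2 and −0.407 to 0.000793 for Gbf1, both across 0 through Arl13b-null 2. With 4 libraries, genes near 0 changed sign: Rab10 with centring (−0.00484) and, with quantile normalization, Rab10 (−0.0433), Rab11b (−0.0314), Rab23 (−0.00537) and Arf3 (−0.0445). Leaving out each library gave ranges across 0 for Rab10 (−0.00458 to 0.0251), Arf3 (−0.0203 to 0.0520), Rab11b (−0.00288 to 0.0507), Rab34 (−0.00939 to 0.0862), Rab23 (−0.00396 to 0.0434) and Arf4 (−0.105 to 0.000110). The cause of these changes was not tested.

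Replicate numbers are shared by the groups. The deviations of same-numbered libraries from their group means correlated at −0.714, −0.707 and 0.623 across genes. Libraries of unlike number gave values as large, from −0.691 to 0.713. Such correlations therefore cannot show whether the numbers mark pairs, and the libraries were not treated as pairs. With the replicate block, 0 GTPase genes were called with 6 libraries, the median was 0.20 and 4 did not overlap. In the 4 libraries only number 3 occurs in both groups, so no block could be fitted there. Precision is limited by depth for genes such as Rab25 and Rab38, and by 2 or 3 libraries per group for all genes.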

Other observations

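Rab42, a GTPase gene too low to test, had normalized counts of 5.78, 1.30 and 2.31 in wild-type and 2.86, 23.8 and 3.01 in Arl13b-null, highest in Arl13b-null 2. Rab37, a Rab of secretory granules, had 6.07, 14.3 and 16.9 against 11.9, 1.19 and 11.2, lowest in that library. Tbc1d5, a GAP of Rab7 in the retromer pathway, had 722, 934 and 829 against 814, 5421 and 963, and Lrrk1, a kinase of Rab proteins, had 310, 439 and 290 against 235, 5.23 and 269. Arl5c had 20.8, 13.8 and 15.7 against 15.2, 67.0 and 12.9.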
